A study of Homo sapiens with 2 samples.

Results

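The genes described here are the 5 linker histone H1 genes HIST1H1A, HIST1H1C, HIST1H1D, HIST1H1E and HIST1H1T, read in SK-NEP-1 cells with and without LBH589. They were found by symbol, as HIST, a digit, H1 and a letter, among the probes that the study's lists of higher and lower mRNAs name. The rows used hold 1954 probes for 1741 symbols, and each H1 gene has 1 probe, so that 5 of the 58921 probes analysed on the arrays belong to H1 genes. All 5 stand within the first 281 of 1002 rows of the list of higher mRNAs, and none stands among the 952 rows of lower mRNAs. Because the lists were made from the same comparison of the same arrays, their higher signal chose the 5 genes and is given as a description. Other members of the H1 family are not named in the rows used and were not analysed here.

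The SK-NEP-1 line is an established one of human origin, which the study grew as a model of Wilms tumor, a kidney tumor of childhood. LBH589, also called panobinostat, inhibits histone deacetylases, the enzymes that take acetyl groups off histone tails. One group was 1 culture of SK-NEP-1 cells given 100 nM LBH589, and the other was 1 culture of the same line given the same volume of the solvent DMSO. The time of treatment was 24 h, and the RNA of each culture, depleted of rRNA and labeled with Cy3, was hybridized to 1 Arraystar Human LncRNA array. With 1 array per group no difference has a replicate check, no test is possible, and effects of the cultures, RNA preparations and labeling reactions cannot be told apart from that of the treatment. In RNA of a whole culture, fewer cells of a type and less RNA per cell cannot be told apart either. The labeled origin of the line could not be read from its markers, since none of 5 kidney blastema and Wilms tumor markers has a probe in the rows used. Of 5 Ewing sarcoma markers only NKX2-2 has one, with a signal of 290 with DMSO and of 6.42 with LBH589, where it was not well above background.

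Linker histone H1 binds the nucleosome where DNA enters and leaves it, and helps to fold chromatin into compact fibres. Most H1 subtypes are encoded without introns among the core histone genes of chromosome 6, and they are replication dependent, so that their mRNA is made mainly while DNA is copied. Such mRNAs end in a short stem-loop in place of a poly(A) tail, and the loop is bound by a protein that governs their processing and decay. HIST1H1C, HIST1H1D and HIST1H1E encode the somatic subtypes H1.2, H1.3 and H1.4, which are found in many dividing cells. HIST1H1A encodes H1.1, a subtype of more limited tissues, and HIST1H1T encodes the testis subtype H1t of male germ cells.

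The probes show which end of these mRNAs was read. The last 30 of the 60 bases of each probe are given below from 5′ to 3′, in the sense of the mRNA, as the study's lists print them. Capitals mark the stem-loop, searched on both strands as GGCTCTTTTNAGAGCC and found here on the strand shown.
HIST1H1A: taacccaacGGCTCTTTTAAGAGCCaccta
HIST1H1C: aaacccaaaaGGCTCTTTTCAGAGCCacca
HIST1H1T: tttggaaagaacccaaaGGCTCTTTTAAGA
HIST1H1E: gcccaacacaacccaaaGGCTCTTTTCAGA
HIST1H1D: aaaattttaaacGGCTCTTTTCAGAGCCac
The probes of HIST1H1A, HIST1H1C and HIST1H1D hold all 16 bases of the stem-loop, and those of HIST1H1E and HIST1H1T end after its first 13. Of the 3956 probes listed for mRNAs and lncRNAs, 0.531% hold the full stem-loop, among them 21 of the 43 probes of histone cluster genes and 0 of the 3913 others. All 5 H1 probes therefore lie at the 3′ end of the processed message, next to a stretch that histone genes share. The HIST1H1C probe had a run of 25 bases in common with the probe of HIST2H3A, and at least 20 bases in common with 13 further histone probes. The HIST1H1E probe had 20 or more bases in common with 7 histone probes, those of HIST1H1A and HIST1H1D with 1 each and that of HIST1H1T with 0. Between H1 probes the longest common run was from 13 to 18 bases, and no listed probe of a gene outside the histone clusters had 20. The array maker's annotation in the lists names no other transcript that could bind the 5 probes. Binding of one gene's RNA to another's probe was not tested.

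The start of each gene is shown next, since the members were all higher with LBH589 and H1 promoters carry known elements. The 125 bases before the start are from RefSeq (GRCh38.p14), on the strand of the gene, and all 5 genes matched by symbol. Capitals mark AAACACA, the H1 box, CCAAT, the CCAAT box, and TATAAA, the TATA box, where they read along the gene.
HIST1H1A (chr6:26017788-26017912, minus strand): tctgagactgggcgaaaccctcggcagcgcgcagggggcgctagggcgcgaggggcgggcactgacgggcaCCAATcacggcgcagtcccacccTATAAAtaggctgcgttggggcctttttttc
HIST1H1C (chr6:26056471-26056595, minus strand): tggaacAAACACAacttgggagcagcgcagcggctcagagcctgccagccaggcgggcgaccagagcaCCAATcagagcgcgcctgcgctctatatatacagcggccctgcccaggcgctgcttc
HIST1H1T (chr6:26108136-26108260, minus strand): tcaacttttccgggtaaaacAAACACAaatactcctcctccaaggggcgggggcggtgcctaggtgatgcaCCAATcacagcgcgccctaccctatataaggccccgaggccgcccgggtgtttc
HIST1H1E (chr6:26156204-26156328, plus strand): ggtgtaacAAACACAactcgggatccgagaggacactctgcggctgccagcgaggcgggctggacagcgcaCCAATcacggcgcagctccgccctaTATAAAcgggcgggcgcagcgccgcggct
HIST1H1D (chr6:26234988-26235112, minus strand): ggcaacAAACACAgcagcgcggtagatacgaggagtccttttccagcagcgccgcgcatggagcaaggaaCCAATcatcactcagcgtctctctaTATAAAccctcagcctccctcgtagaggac
CCAAT stood from 54 to 57 bases before the start in all 5 genes. AAACACA stood 119 bases before it in HIST1H1C and HIST1H1D, 117 in HIST1H1E and 105 in HIST1H1T. In HIST1H1A it was found only on the other strand, 183 bases before the start and outside the sequence shown. TATAAA was found in HIST1H1A, HIST1H1D and HIST1H1E, at 31, 30 and 29 bases before the start. In the 300-base windows from 250 bases before to 50 after the start, on either strand, AAACACA was present for 5 of 5 H1 genes, for 1 of the 35 core histone genes that matched (2.86%) and in 5.76% of all 27305 RefSeq promoters. CCAAT was present for 31 of the 35 core histone genes (88.6%) and in 35.7% of all promoters, and TATAAA for 22 of 35 (62.9%) and in 11.95%. These are matches of letters, not measured sites of binding, and the 3 motifs do not overlap in the sequences shown.

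HIST1H1C had the highest difference among the 3 H1 genes called well above background with DMSO and with LBH589. It lies at chr6:26055968-26056699 (hg19, minus strand), and its processed signal, which is the brightness of the spot less background in arbitrary units, was 4779 with DMSO and 32268 with LBH589. The LBH589 array was dimmer as a whole, and its 75th percentile of signals was 108 where that of the DMSO array was 189. After each array was set against its own 75th percentile, the difference of HIST1H1C was 3.55 on the log2 scale, 11.7-fold higher with LBH589, and all later folds are after this scaling unless said otherwise. The error that the scanner software gives for the spots was 0.20 on that scale, which covers the reading of 1 spot per array and not the spread between cultures. Of the 41574 probes well above background on 1 or both arrays, 299 had a higher difference.

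HIST1H1D and HIST1H1E, the other somatic subtypes, were also well above background on both arrays. HIST1H1D (chr6:26234440-26235216, minus strand) had a signal of 49.1 with DMSO, under the 53.0 that 95% of the negative control spots of that array did not exceed, and 281 with LBH589. Its difference was 3.31 ± 0.24 (spot error, 1 array each), 9.94-fold higher with LBH589, and 396 probes exceeded it. HIST1H1E (chr6:26156559-26157343), the only one of the 5 on the plus strand, had a signal of 140 with DMSO and 638 with LBH589. Its difference was 2.98 ± 0.21 (spot error, 1 array each), 7.91-fold higher with LBH589, and 541 probes exceeded it. Even before scaling, the LBH589 signal was 6.75 times the DMSO signal for HIST1H1C, 5.71 times for HIST1H1D and 4.55 times for HIST1H1E.

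The order of these 3 genes was only partly resolved by the spot error. HIST1H1C exceeded HIST1H1E by 0.57 on the log2 scale, with a combined error of 0.29. HIST1H1C exceeded HIST1H1D by 0.24 with an error of 0.31, and HIST1H1D exceeded HIST1H1E by 0.33 with an error of 0.32, so that neighbours in the order did not differ clearly beyond their errors. The order also changed with the processing. After normexp background correction HIST1H1D stood at 2.12, under HIST1H1E at 2.28, and in the deposited table of processed values HIST1H1D stood at 3.46, above HIST1H1C at 3.41.

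HIST1H1A and HIST1H1T were well above background only with LBH589. HIST1H1A (chr6:26017260-26018040, minus strand) had a signal of 8.10 with DMSO, not well above background, and 53.1 with LBH589. HIST1H1T (chr6:26107640-26108364, minus strand) had a signal of 4.25 with DMSO, which is the lowest value the software gave on that array and the value of 8638 spots, and 55.1 with LBH589. Among probes well above background the lowest signal was 21.3 with DMSO and 14.5 with LBH589. Set against that limit, HIST1H1A was at least 4.34-fold higher and HIST1H1T at least 4.50-fold higher with LBH589. On the log2 scale these bounds were 2.12 and 2.17, and with the DMSO signals taken as they stand the differences were 3.51 and 4.50. The call of well above background was itself loose, since it was given to 90 of 600 negative control spots with DMSO and to 74 of 600 with LBH589. The 95th percentile of those control spots was 53.0 with DMSO and 27.4 with LBH589. With LBH589 all 5 H1 genes were above it, but with DMSO only HIST1H1C and HIST1H1E were, and HIST1H1D at 49.1 lay within the controls. Set against these percentiles, HIST1H1A was at least 1.75-fold higher, HIST1H1T at least 1.81-fold and HIST1H1D at least 9.22-fold. The bounds of HIST1H1A and HIST1H1T were also under 2-fold after normexp correction with an offset of 50, at 0.93 and 0.96 on the log2 scale. None of 7 testis germ cell markers has a probe in the rows used, so that HIST1H1T could not be set beside other germ cell genes.

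**Figure D1:**
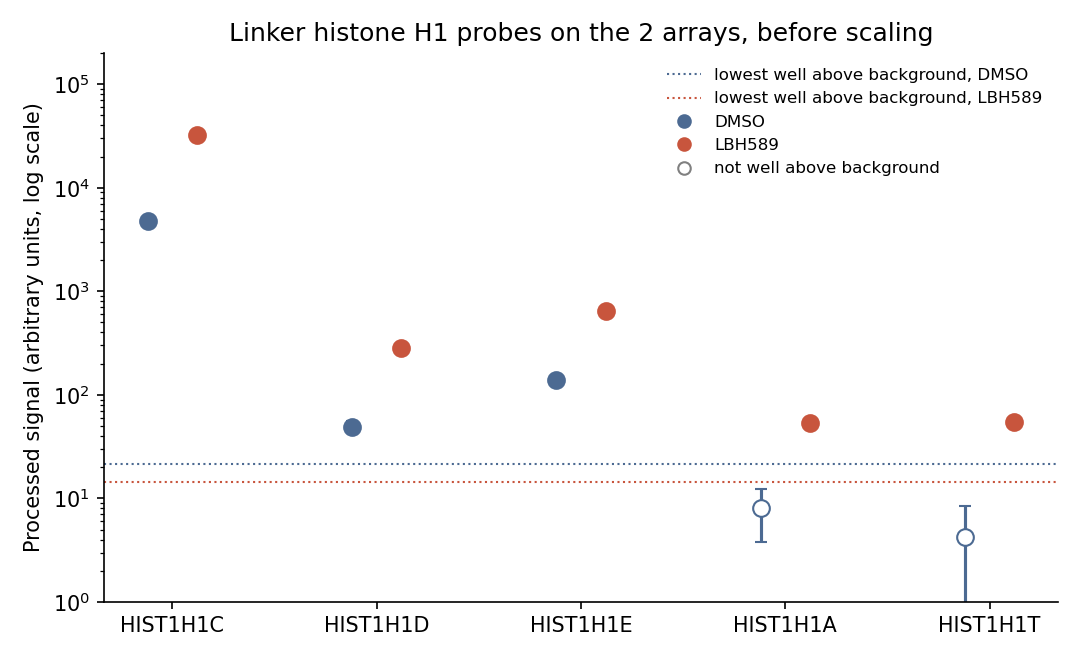
Processed signal (arbitrary units, log scale) of the 5 H1 probes on each of the 2 arrays, before scaling between arrays. Filled points were well above background, open points were not, bars are the spot errors and dotted lines mark the lowest signal well above background on each array (21.3 and 14.5). All 5 LBH589 points lie above their DMSO points, and the DMSO points of HIST1H1A (8.10) and HIST1H1T (4.25) lie under the line. Levels of different probes are not comparable with each other.

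Counting the bounds, all 5 H1 probes were at least 2-fold higher with LBH589, where 12.3% of all probes were, and 3 of 5 were at least 5-fold higher, where 2.49% of all probes were. With the limit set by the negative control spots, 3 of 5 H1 probes were at least 2-fold higher, where 3529 of the 32159 probes kept at that limit were. Since the choice of the genes used this comparison, nothing is read from these counts. The median difference of the H1 probes was 2.98 and that of the 41574 probes was -0.01. Each H1 gene was read by a single spot on each array, and none of these spots was marked as an outlier. Among 20 reference probes printed on 10 spots, the spots of a probe had a median SD of 0.07 on the log2 scale on either array. The highest SD of a probe was 0.36 on either array.

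Core histones H2A, H2B, H3 and H4 form the nucleosome itself. The lists name 38 of their replication-dependent genes, on chromosomes 1 and 6, of which 16 lie between the H1 genes. These 38, likewise chosen by their higher signal, had a median difference of 2.95, with a range from 1.77 to 4.91. The rows of higher mRNAs used end at ITPKA, with a difference of 1.84 here (3.59-fold), so that core genes further down were not read. The low end of the range and the median depend on where the rows end. The lowest difference here among those rows was 0.34, so that 1.84 is not a strict limit on this measure. HIST1H1C, HIST1H1D and HIST1H1E lay within that range. The values of HIST1H1A and HIST1H1T are lower bounds and could not be placed under its upper end. The low end of 1.77 is itself a lower bound, that of HIST1H2AC. Of the 34 core probes well above background on both arrays, 8 had a higher difference than HIST1H1C, 13 than HIST1H1D and 18 than HIST1H1E. HIST1H2BG, an H2B gene, was the highest core gene, at 120 with DMSO and 2073 with LBH589, 30.1-fold higher. HIST1H2BE, another H2B gene, was the lowest of the 34, at 160 and 336, 3.66-fold higher, which is close to the value of that last row. By type, the H1 median of 2.98 stood under those of H3 (3.21, 10 probes) and H2B (3.11, 9 probes) and above those of H4 (2.93, 7 probes) and H2A (2.74, 12 probes). These medians hold lower bounds, and without them the order was another, with 3.31 for H1, 3.21 for H3, 3.17 for H2A, 3.11 for H2B and 2.95 for H4. On the DMSO array 2 of 5 H1 probes and 4 of 38 core probes were not well above background. Against the 95th percentile of the negative control spots, 2 of 5 H1 probes and 28 of 38 core probes were above the limit on both arrays. Core probes that hold the first 13 bases of the stem-loop, as all H1 probes do, had a median of 3.02 over 22 probes. Of the 16 without it, the 12 well above background on both arrays had a median of 3.11.

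**Figure D2:**
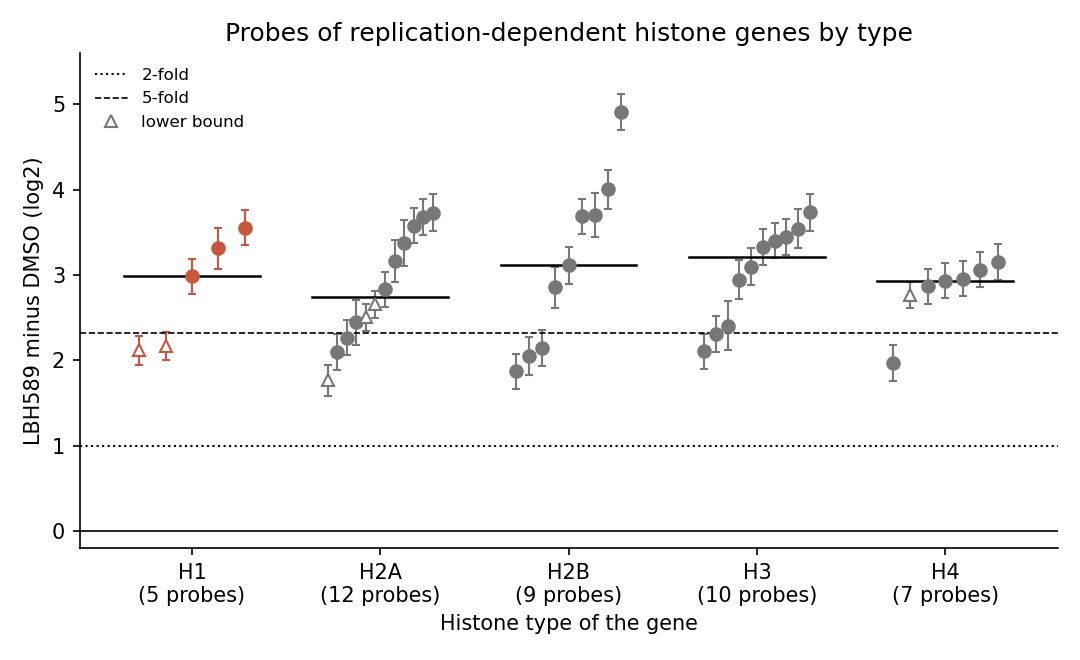
Difference of LBH589 minus DMSO (log2) for each probe of a replication-dependent histone gene, by histone type. Points are probes, bars are spot errors, triangles are lower bounds, horizontal lines are medians (2.98 for H1), and the dotted and dashed lines mark 2-fold and 5-fold. The probes of HIST1H1C, HIST1H1D and HIST1H1E, from 2.98 to 3.55, lie inside the range of the core probes, from 1.77 (a lower bound) to 4.91. The values of HIST1H1A (2.12) and HIST1H1T (2.17) are lower bounds, and their place in that range is not resolved.

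The 5 H1 genes lie in 218 kb of chromosome 6, from 26017260 to 26235216 in hg19, with 16 of the listed core histone genes between them. Those 16 had a median difference of 2.94, from 1.77 (a lower bound) to 4.91, so that genes with small and large differences stood side by side. Core histone genes outside the rows used were not analysed here and can lie closer, so that a neighbour below is the nearest listed one. For HIST1H1C, HIST1H1D and HIST1H1E the nearest listed core gene had a smaller difference. This holds for that 1 gene each, since the next listed core gene on the same side of HIST1H1C, the H2B gene HIST1H2BB, was at 62.6 with DMSO and 578 with LBH589, 16.1-fold higher, against 11.7-fold for HIST1H1C. HIST1H1C had 9.87 kb away the H3 gene HIST1H3C, at 162 with DMSO and 462 with LBH589, 4.96-fold higher. HIST1H1D had 5.44 kb away the H4 gene HIST1H4F, at 180 and 404, 3.91-fold higher. HIST1H1E had 26.7 kb away HIST1H2BE. The H1 gene exceeded this neighbour by 1.24 (combined spot error 0.29) for HIST1H1C, by 1.34 (0.32) for HIST1H1D and by 1.11 (0.29) for HIST1H1E. HIST1H1A, with a bound of 4.34-fold, lay 2.68 kb from the H3 gene HIST1H3A, at 136 and 851, 10.9-fold higher. HIST1H1T lay 16.01 kb from the H2A gene HIST1H2AC. HIST1H2AC was at 16.6 with DMSO, not well above background, and 41.7 with LBH589, at least 3.40-fold higher. Against the 95th percentile of the negative control spots with DMSO (53.0) this bound is lower, as were those of HIST1H1A and HIST1H1T.

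**Figure D3:**
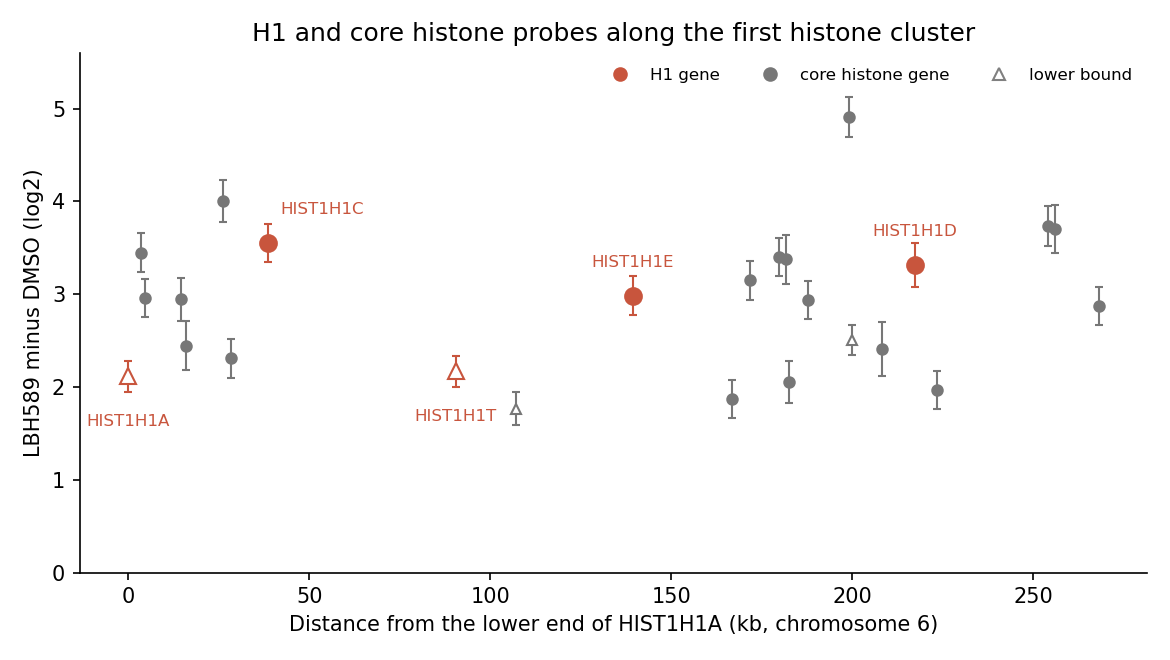
Difference of LBH589 minus DMSO (log2) for H1 and core histone probes against the distance of the gene from the lower end of HIST1H1A on chromosome 6 (kb). Bars are spot errors and triangles are lower bounds. HIST1H1C, HIST1H1D and HIST1H1E each stand above the 1 nearest core gene among those listed. Other listed core genes close by stand higher (HIST1H2BB, 16.1-fold, near HIST1H1C). The listed core genes between the H1 genes range from 1.77, a lower bound, to 4.91.

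Many histones outside the replication-dependent clusters are made throughout the cell cycle, from mRNAs that carry poly(A) tails. Of 15 genes outside the clusters, 3 had a probe in the rows used or among the reference probes. Of these, 0 were at least 2-fold higher, where 12.3% of all probes were, and 2 at least 2-fold lower, where 10.2% were. H2AFZ, which encodes the variant H2A.Z, was at 31580 with DMSO and 4198 with LBH589, 4.32-fold lower. H2AFY, which encodes macroH2A, was at 7615 and 1013, also 4.32-fold lower. H3F3A, which encodes H3.3, is a reference probe on 10 spots per array, with a median signal of 114579 (from 100717 to 121751) with DMSO and 54309 (from 47417 to 56796) with LBH589. Its difference was -0.29 on the log2 scale with an SD between spots of 0.11, 1.22-fold lower after scaling. The H2AFZ and H2AFY probes were named through the list of lower mRNAs, so that the choice fixed their direction and nothing is read from the counts.

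Chaperones and import factors carry H1 to the nucleus and onto DNA, and 2 of 7 such genes had a probe in the rows used. SET, which encodes a histone chaperone that also blocks histone acetylation, was at 98.3 with DMSO and 433 with LBH589, 7.67-fold higher. KPNB1, which encodes importin beta, was at 555 and 38.3, 8.33-fold lower. The values of these probes went in opposite directions. Both probes were named through the lists of higher and lower mRNAs, so that the choice fixed each direction and nothing is read from it.

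Histone mRNAs are tied to DNA synthesis, and 3 of 15 genes of S phase and replication had a probe in the rows used. All 3 were at least 2-fold lower with LBH589, where 10.2% of all probes were. They have a probe here only because they stand in the list of lower mRNAs, so nothing is read from that count. TYMS, the enzyme that makes thymidylate for DNA, was at 21628 with DMSO and 805 with LBH589, 15.4-fold lower. MCM7, a subunit of the replicative helicase, was at 2360 and 246, 5.52-fold lower. CDC25A, the phosphatase that lets cells enter S phase, was at 341 and 39.7, 4.94-fold lower. These 3 thus differed in the direction opposite to the 5 H1 genes, and both directions were part of how the lists were made. None of 12 genes of histone transcription and 3′ end processing, of 11 histone deacetylases and of 6 H1 kinases and their cyclins has a probe in the rows used, so these steps were not analysed here.

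Outside the histones, the 3 listed mRNA probes whose difference was nearest to the H1 median of 3.31 over HIST1H1C, HIST1H1D and HIST1H1E were those of SUN1, CHCHD7 and KLC3. SUN1, a protein of the inner nuclear membrane, was at 320 with DMSO and 1832 with LBH589, a difference of 3.31. CHCHD7, a mitochondrial protein, was at 2611 and 14994, a difference of 3.32. KLC3, a kinesin light chain, was at 312 and 1760, a difference of 3.30. The likeness is the distance of log2 differences over 2 arrays and was at most 0.02. The H1 median is the value of HIST1H1D, whose spot error was 0.24 and whose bound against the negative control spots was 3.20, so that the order of nearness is finer than the measurement and other probes could take these places.

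The size of the H1 difference depended on the processing. HIST1H1C had values from 2.76 to 3.63 on the log2 scale over 14 settings, HIST1H1D from 2.12 to 3.46 and HIST1H1E from 2.18 to 3.15. HIST1H1A had values from 0.80 to 3.56 over 13 settings and HIST1H1T from 0.86 to 4.50 over 12. All of these values were above 0. The direction was part of how the genes were chosen from these same arrays, so nothing is read from that.

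**Figure D4:**
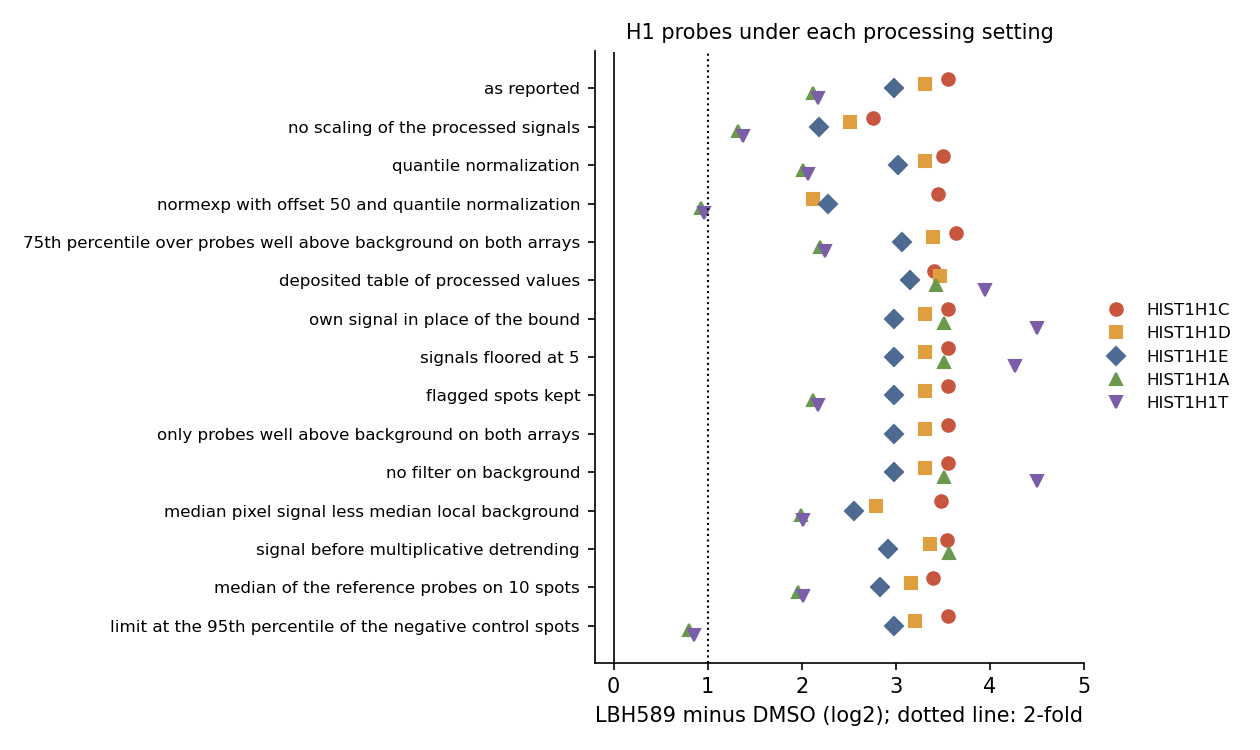
Difference of LBH589 minus DMSO (log2) of each H1 probe under each processing setting, with the dotted line at 2-fold. HIST1H1C, HIST1H1D and HIST1H1E stay above 2-fold in every setting shown, and HIST1H1A (0.93) and HIST1H1T (0.96) are under it with normexp, as they are with the limit at the 95th percentile of the negative control spots (0.80 and 0.86).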

How the data were processed

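RNA of 1 DMSO and 1 LBH589 culture was read on 1 array each, of 61184 spots. The authors deposited Feature Extraction output (11.0.1.1 per the file headers, 10.7.3.1 in the submitters' processing notes), in which each spot has an intensity: a background-subtracted processed signal, not normalized between arrays, and its error. Multiplicative detrending had been applied on the LBH589 array only. Flags for background, saturation and outliers were deposited as a score of 0 or 1. The authors also deposited log2 values for 41891 probes, of which 41861 matched, with medians of 6.27 and 6.25. Their normalization is not given in the sources used here. The fold changes, p-values and other comparison columns in the study's lists were not used.

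Control spots, 60 negative control probes and flagged spots (26 with DMSO, 37 with LBH589) were left out. Each array's log2 processed signals were set against their 75th percentile over 58921 probes, and LBH589 minus DMSO was taken. Well above background were 66.0% of probes with DMSO and 63.3% with LBH589, and 0 were saturated. Where a probe failed that on 1 array, the difference is a bound against the lowest signal well above background there, or its own signal if higher. Genes, hg19 coordinates and probe sequences came from the study's lists, of which part of the rows was used. No test was run, and the number of arrays limits the precision.

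The genes named are the H1 genes, the listed core histone gene nearest to each, the highest and lowest core gene well above background on both arrays, the 3 listed mRNA probes with the most similar difference, and all members with a probe of the gene lists of the report. ITPKA, HIST1H2BB and the genes of the closing section were chosen after their values were seen. The members and lists were chosen with earlier results of these data known. Alternatives were no scaling, quantile normalization, normexp (offset 50, on median spot signals, since mean signals were not used here), the 75th percentile over other probes, reference probes, a limit set by the negative control spots, floors, filters and background measures, and the deposited table. Python 3.11.15, pandas 2.3.3, NumPy 2.4.6, R 4.3.3 and limma 3.58.1 were used, and the calculation was tested on simulated data.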

Additional observations from a re-analysis of the deposited data

How the results depend on the processing

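No result reversed under any of the 14 alternatives. Of these, 3 (signals before multiplicative detrending, scaling by reference probes on 10 spots, and a limit at the 95th percentile of negative control spots) were chosen after seeing the data. All alternatives reprocess the same arrays that chose the H1 and core genes as higher, so nothing is read about their direction. The median of the H1 probes, 2.98 on the log2 scale, was 2.18 with no scaling, 2.12 with normexp, 2.56 with median pixel signals less local background, 3.31 with probes required to be well above background on both arrays, 3.42 in the deposited table, 3.45 before detrending, where HIST1H1T gave no value, and 3.51 with DMSO signals taken as they stand, floored at 5 or with no filter. The H1 probes at least 2-fold higher were 5, but 4 of the 4 with a value before detrending, 3 with normexp, 3 with the limit at the control spots and 3 where both arrays had to be well above background, a filter that leaves 3 in all. The core histone median, 2.95, was 2.15 with no scaling, 2.30 with normexp and 3.24 in the deposited table. The 5094 probes at least 2-fold higher were 1802 with no scaling, 2474 with normexp and 9256 with no filter. The 1035 probes at least 5-fold higher were 477 with no scaling, 406 with normexp, 675 with median pixel signals, 1687 with signals as they stand or floored at 5, and 1948 with no filter. With no scaling the median of all probes on both arrays was -0.83, and the H1 and core values are lower by the shift of scale that this leaves in. For the other alternatives the cause was not tested. No paired analysis was possible because each group has 1 sample, and for the same reason no replicate could be left out. A signal near background, as for HIST1H1A and HIST1H1T with DMSO, limits those genes to a bound.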

Other observations

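Genes that are not histones, in a region around the H1 genes on chromosome 6 and named in the rows used, did not share one direction. The 3 found lie from 26440700 to 28201264 in hg19, and the rest of the chromosome arm was not searched. BTN3A3, a butyrophilin, was at a signal of 53.8 with DMSO and 197 with LBH589, a difference of 2.67 on the log2 scale. Its DMSO signal was close to the 95th percentile of the negative control spots of that array, 53.0. HMGN4, a nucleosome-binding protein, was at 2843 and 310, a difference of -2.40. ZNF193, a zinc finger protein, was at 218 and 31.5, a difference of -1.99, and its LBH589 signal was close to that percentile with LBH589, 27.4. These 3 genes were chosen after their values were seen, each has 1 array per group, and no difference between them was tested.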
